A study of Mus musculus with 2 samples.

Results

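Naive-type CD8 T cells were taken from single-cell RNA sequencing of the adult mouse lung, in which sorted live cells gave a GFI1 KO library and a WT library, named here as GEO labels them. The KO mice carry a germline loss of Gfi1, a gene for a zinc finger protein that represses transcription, so that T cells, their precursors and the cells around them share the genotype. The labels name no treatment and no further allele for either genotype. A cell was selected on its own counts of unique molecular identifiers (UMIs, each standing for 1 captured transcript). It had at least 500 gene UMIs, at least 200 genes and at most 20% mitochondrial UMIs. It had at least 2 UMIs summed over the CD3 genes Cd3d, Cd3e and Cd3g, and at least 1 UMI each of Cd8b1 and Lef1. It had no UMI of Trdc, Cd4, Ebf1, Csf1r, Mertk or Ptprb. At most 1 gene was detected among the 6 granzyme-type genes Gzma, Gzmb, Gzmk, Klrg1, Cx3cr1 and Fasl, and at most 1 among the 6 innate-type genes Klrc1, Gzmm, Samd3, Ly6c2, Ctla2a and Il2rb. This rule found 744 of the 29837 cells that passed the filters, 92 of 10495 in the GFI1 KO library (KO members) and 652 of 19342 in the WT library (WT members).

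Naive CD8 T cells leave the thymus and circulate between blood and lymphoid organs in a resting state that depends on interleukin-7 and on weak contacts of the T cell receptor with MHC class I. LEF1 and TCF-1 are transcription factors that mark this state. In the lung such cells are found in vessels and in passage, beside memory cells that express NK-type receptors, inflammatory chemokine receptors and granzymes.

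With 1 library per label there was no replicate, so no test was made, and genotype, mouse and library cannot be told apart. The 95% intervals given cover counting error only. Members had a median of 6571 UMIs (2014 to 11535) and 2146.5 genes in the KO library, and a median of 6089.5 UMIs (2140 to 22582) and 2179 genes in the WT library. The libraries as a whole held 116568283 and 162281932 gene UMIs, with medians of 11076 and 6217 per cell. Depth among members was thus similar, as was the median share of mitochondrial UMIs, at 3.65% and 3.27%. Ribosomal protein genes took 32.0% and 27.6% of the members' UMIs. The libraries shared 74 cell barcodes among their called cells, 0 barcodes among their members, and 2 members carried the barcode of a called cell in the other library. Levels are in CPM, which here means UMIs per 1000000 UMIs of the class after mitochondrial, ribosomal and Gm- genes were set aside.

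Gfi1, the gene lost in the KO mice, stood at 3.60 CPM (3.23 to 4.0) over the whole KO library and at 3.46 CPM (3.16 to 3.79) over the whole WT library. Among members it had 10 UMIs in 9 of 92 cells and 30 UMIs in 29 of 652 cells, or 26.4 CPM (12.7 to 48.6) and 10.6 CPM (7.17 to 15.2). The ratio of GFI1 KO to WT was 2.49 (1.08 to 5.22). A higher KO level was not particular to the members. In B cells Gfi1 stood at 13.6 CPM (10.2 to 17.8) and 5.44 CPM (4.31 to 6.78). Among the T cell classes described below, it stood at 19.96 and 6.70 CPM in naive-type CD4 T cells. Innate-type cells had 14.2 and 10.4 CPM, and granzyme-type cells went the other way, at 17.2 and 19.8 CPM. In each of these T cell classes the intervals of the levels overlapped. The libraries count the 3′ ends of transcripts, and the sources used here do not say whether that end of Gfi1 lies in the deleted part, so these counts do not check the labels.

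The members carried the markers of resting CD8 T cells. Cd8a, the other chain of the CD8 co-receptor, did not enter the rule and stood at 336 CPM (280 to 399) in KO members and 341 CPM (320 to 364) in WT members. Dapl1, a gene of resting T cells, had 223 UMIs in 57.6% of members and 1282 UMIs in 52.9%. Ccr9, the receptor for the chemokine CCL25 that thymic and gut tissue make, was found in 32.6% and 35.4% of members, at 114 CPM (82.3 to 153) and 127 CPM (114 to 140). After each cell was thinned to 2000 UMIs, Dapl1 was found in 37.0% and 33.3% of members, against 0% and 0.0695% of B cells, which should lack it, and 18.5% and 34.1% of innate-type CD8 T cells. In the WT library Dapl1 thus did not set members apart from the innate-type class. Cd8a and Ccr9 differed little between the labels, whereas the ratio of GFI1 KO to WT for Dapl1 was 1.30 (1.12 to 1.5). Cd8b1 and Lef1, which the rule required, differed too. Cd8b1 had a log2 ratio of 0.40 (0.25 to 0.56), and Lef1 had medians of 8 and 12 UMIs per member.

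Naive-type cells made up a smaller share of the Cd8b1+ T cells in the KO library. They were 92 of 356 Cd8b1+ T cells there, or 25.8% (21.4 to 30.7), and 652 of 1067, or 61.1% (58.1 to 64.0), in the WT library. The difference was -35.3 percentage points (-40.6 to -29.5). With none of the 12 genes of the granzyme-type and innate-type groups allowed, the shares were 11.5% and 24.6%, a difference of -13.0 points (-17.2 to -8.47). Of all T cells they were 10.9% (8.87 to 13.2) and 22.5% (21.0 to 24.1), and of all cells that passed the filters 0.877% (0.707 to 1.07) and 3.37% (3.12 to 3.63). The last share also depends on the other cells in each sort.

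The remaining Cd8b1+ T cells lay on the other side of the same rule. Innate-type memory cells, with at least 2 of the 6 innate-type genes and at most 1 granzyme-type gene, were 168 cells (47.2%, 41.9 to 52.5) and 293 cells (27.5%, 24.8 to 30.2). Granzyme-type cells, with at least 2 granzyme-type genes, were 94 cells (26.4%, 21.9 to 31.3) and 118 cells (11.1%, 9.24 to 13.1), and 2 and 4 further cells had no Lef1 UMI. Of all cells in the library, the innate-type class held 1.60% and 1.51%, a difference of 0.0859 points (-0.209 to 0.394). The name of the class states the rule only. Innate-type cells had medians of 6 Lef1 UMIs in the KO library and 13 in the WT library, against 8 and 12 in members. By Lef1 the WT cells of the class were thus not set apart from members, and the class is not alike in the libraries. Many WT cells of the class lay next to the limit. Innate-type cells with Lef1 and just 2 innate-type genes were 31 KO and 176 WT cells (8.71% and 16.5% of Cd8b1+ T cells), and those with Lef1 and 3 or more were 34.3% and 10.4%. Shares of Cd8b1+ T cells sum to 100%, so a lower share of one class goes with a higher share of another.

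**Figure D1:**
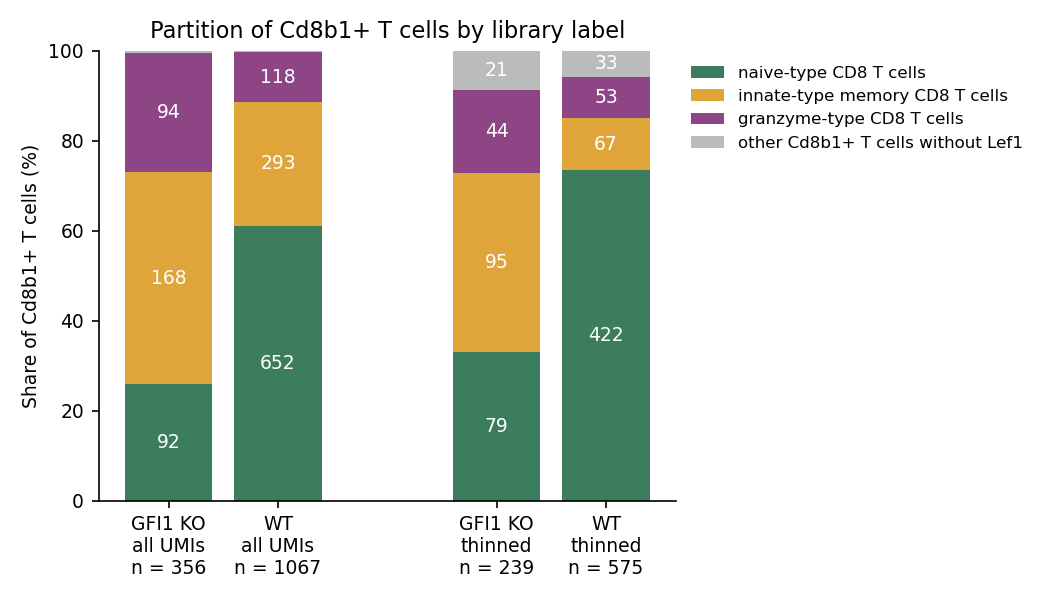
Share of Cd8b1+ T cells (vertical axis, %) in 4 classes for each library label, with all UMIs (left pair) and after thinning each cell to 2000 UMIs (right pair); numbers in the bars are cells. Naive-type cells take 25.8% of the KO bar and 61.1% of the WT bar, and 33.1% and 73.4% after thinning.

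A class set by the absence of genes grows as cells become shallower, so the rule was applied again to cells thinned to 2000 UMIs, with 5 and 10 shallower T cells left out. Naive-type cells were then 79 of 239 Cd8b1+ T cells, or 33.1% (27.1 to 39.4), and 422 of 575, or 73.4% (69.6 to 77.0). The difference was -40.3 points (-47.3 to -32.9), and it ranged from -44.5 to -32.8 points over 20 draws of the thinning. Innate-type cells were then 95 (39.7%) and 67 (11.7%) of the Cd8b1+ T cells.

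The number of innate-type genes per cell showed where the limit of the rule fell in each library. Among cells with Lef1, Cd8b1 and at most 1 granzyme-type gene, 46 of 245 KO cells had 0 innate-type genes, 46 had 1 and 31 had 2. In the WT library 287 of 939 cells had 0, 365 had 1 and 176 had 2. Further out, 4 or more of these genes were found in 35, 38 and 22 KO cells (4, 5 and 6 genes) and in 36, 11 and 5 WT cells. WT cells thus gathered next to the limit, while KO cells spread over the whole range. The members just inside the limit, with 1 innate-type gene, were 50% of KO members and 56.0% of WT members. The median KO member had 8 UMIs of Lef1 and the median WT member 12, and 6.52% and 2.91% of members had only 1. These values chose the members and are given as a description.

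**Figure D2:**
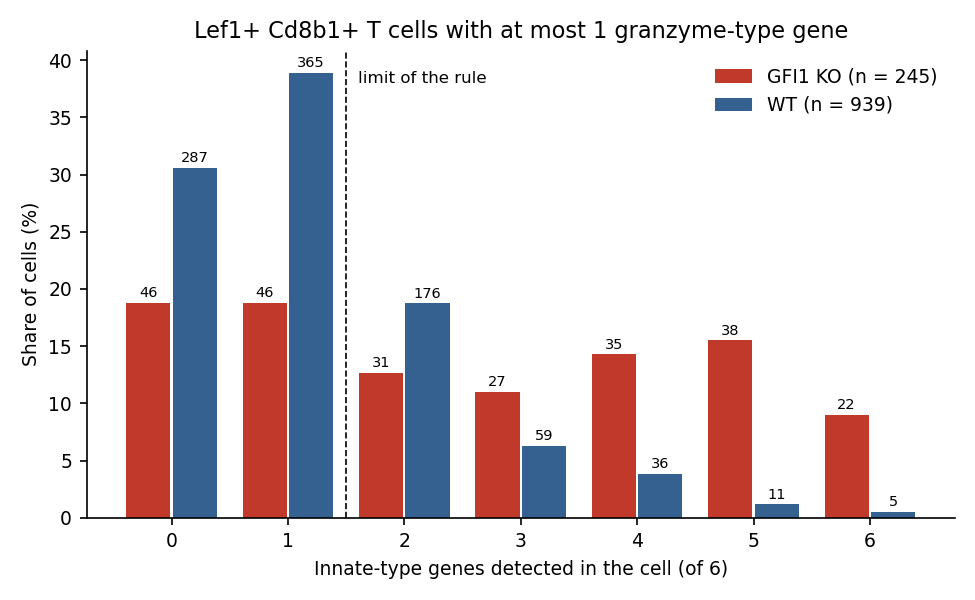
Share of cells (vertical axis, %) by the number of innate-type genes detected (horizontal axis, 0 to 6), for Lef1+ Cd8b1+ T cells with at most 1 granzyme-type gene; numbers above bars are cells, and members lie left of the dashed line. WT cells concentrate at 0 to 2 genes, and 38 of 245 KO cells had 5 genes against 11 of 939 WT cells.

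Within the members, gene levels were compared between the labels for the 8248 genes with at least 30 UMIs over both libraries. A gene is called higher or lower where its ratio of GFI1 KO to WT was at least 2 or at most 0.5 and the counting interval of the ratio left out 1. This gave 112 genes higher (1.36%) and 308 lower (3.73%). The lower genes include 36 with 0 UMIs in KO members, and with KO set at the floor of 3 UMIs the fold of 26 of these was under 2. The intervals are not adjusted for the number of genes, and 118 of the 308 lower genes had at most 3 UMIs in the 92 KO members. With the cell that held most UMIs of a gene left out of each library, an alternative chosen after seeing the data, 65 genes were higher and 586 lower. With cells thinned before the rule, 92 genes were higher and 145 lower, of which 15 and 22 were among the genes called with all UMIs. Among the 581 genes with at least 1000 UMIs, 1 was called higher and 5 lower. The median log2 ratio of the compared genes was -0.04. Over all gene UMIs, with the ribosomal genes that took a larger part of the KO library, it was -0.15, and 76 genes were higher and 431 lower, or 15.0% against 26.7% of the called genes on the higher side.

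**Figure D3:**
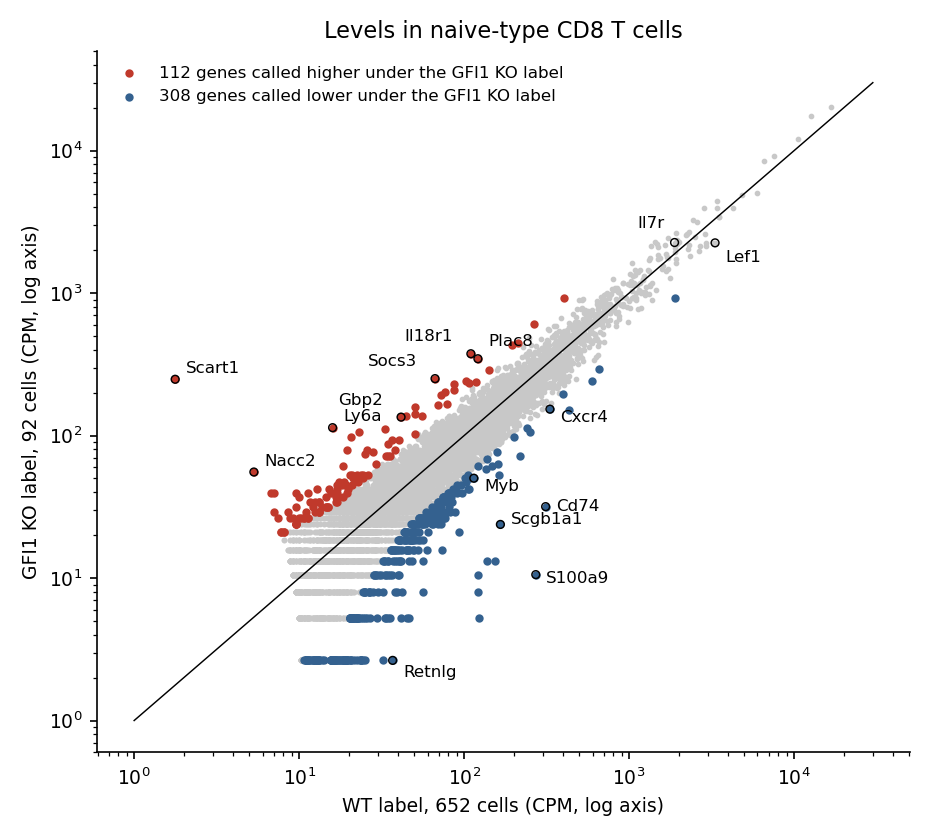
Level of each of the 8248 compared genes in naive-type CD8 T cells, as CPM on log axes, in WT members (horizontal, 652 cells) and KO members (vertical, 92 cells); the line marks equal levels, and genes with 0 UMIs in KO members are drawn at the level of 1 UMI. Red points are the 112 genes called higher, blue points the 308 called lower, and Scart1, at 248 and 1.77 CPM, lies farthest above the line.

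Scart1, a scavenger receptor gene known from γδ T cells, had the highest ratio of the genes compared. It had 94 UMIs in 31 of 92 KO members and 5 UMIs in 1 of 652 WT members, or 248 CPM (201 to 304) and 1.77 CPM (0.575 to 4.14). The ratio was 140 (58.0 to 442). All 5 UMIs of the WT members thus lay in a single cell. Among KO members 20 cells had 2 or more UMIs, and the 5 cells with the most held 46.8% of the UMIs. After thinning, Scart1 was found in 17.4% of KO members, 0.153% of WT members and 0% of the B cells of either library.

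Scart1 was higher in the innate-type class of the same libraries, at 753 and 39.0 CPM, and lower in naive-type CD4 T cells, at 24.95 and 1.12 CPM. Other γδ T cell markers were mostly at or near 0. Of the 13 listed γδ markers in the files, Trdv4, Sox13 and Il17a had 0 UMIs in both libraries, Blk had 0 and 3, and the constant genes Trgc1, Trgc2 and Trgc4 had 1, 0 and 0 UMIs in KO members and 2, 1 and 2 in WT members. The summed list stood at 317 and 33.7 CPM, with Scart1 its most abundant gene. Scart2 had 8 and 1 UMIs, Il23r 1 and 17, Zbtb16 0 and 21, and Maf, a transcription factor of several T cell types, had 16 and 43 UMIs with a ratio of 2.77 (1.46 to 5.03). Trdc itself was 0 by the rule.

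The 31 KO members with Scart1 carried αβ receptor genes. Trac stood at 426 CPM in them and at 474 CPM in the 61 KO members without Scart1, and Trbc2, found in every cell with Scart1, at 1777 and 1763 CPM. They differed from the others in several listed genes. Ikzf2, which encodes the factor Helios, had 71 UMIs in 15 of 31 cells and 16 UMIs in 6 of 61 cells. Ccr9 was found in 48.4% and 24.6% of cells, and Dapl1 in 41.9% and 65.6%. An innate-type gene was detected in 71.0% and 39.3% of them, and the cells with Scart1 were deeper, with medians of 7662 and 5757 UMIs. The part of depth in these shares was not tested.

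Socs3, Il18r1 and Ly6a were also among the 12 highest ratios. Socs3, which restrains signals through gp130 and other cytokine receptors, had 95 UMIs in 53.3% of members and 188 UMIs in 21.3%. Its KO level was 251 CPM (203 to 307) and its WT level 66.6 CPM (57.5 to 76.9), which made the ratio 3.77 (2.91 to 4.85). Il18r1, a chain of the interleukin-18 receptor, was found in 63.0% and 28.1% of members, with 142 and 310 UMIs, or 375 CPM (316 to 442) against 110 CPM (98.0 to 123). The ratio was 3.42 (2.78 to 4.18). Ly6a, the gene of the interferon-induced surface protein Sca-1, had 43 UMIs in 28.3% of members and 45 UMIs in 5.83%, a ratio of 7.13 (4.58 to 11.1). These genes were spread over many cells, and no single cell held more than 8 UMIs of any of them among KO members.

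Gbp2 and Iigp1 encode interferon-induced GTPases. Gbp2 had 51 and 117 UMIs, a ratio of 3.25 (2.29 to 4.55), and Iigp1 had 37 and 58 UMIs, a ratio of 4.76 (3.06 to 7.31). Each was more uneven, with 11 and 12 of those UMIs in 1 KO member, and the ratios without the top cell of each library were 2.64 and 3.58. With cells thinned before the rule the log2 ratio of Gbp2 was 0.99 (-0.29 to 2.13), which ended its call, and that of Sgip1, another of the highest 12, was 0.71 (-0.88 to 2.07). The remaining genes of the highest 12 were Nacc2 (21 and 15 UMIs, ratio 10.4), Zfp608 (5.89), Thbs1 (5.59), Atf6 (4.59), Sgip1 (4.07) and Plac8 (2.86). Of them Atf6 encodes a sensor of stress in the endoplasmic reticulum, and Plac8 had 131 UMIs in 52.2% of members and 342 UMIs in 29.4%. After thinning, Zfp608 was found in 1.09% and 1.07% of members and in 36.8% and 38.8% of B cells. Thbs1 was found in 6.52% and 0.767% of members and in 9.25% and 2.01% of B cells. Atf6 and Plac8 were also more frequent in B cells, whereas Nacc2 and Sgip1 were rarer there. Ust, a sulfotransferase gene, was the 1 gene called higher among those with at least 1000 UMIs, at 928 and 404 CPM.

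Of the highest 12, 8 also had a ratio of at least 2 with an interval above 1 in innate-type memory cells, where 2.24% of 8023 genes did, and 8 did in naive-type CD4 T cells, where 2.87% of 7286 genes did, with Scart1, Nacc2, Socs3, Zfp608, Il18r1 and Sgip1 in both classes. In B cells 1 of the 12, Thbs1, did, beside 2.39% of 11974 genes, and 3 of the 12, Nacc2, Iigp1 and Sgip1, had a ratio of at most 0.5 with an interval below 1, beside 6.56%. Gbp2 was called in neither of these T cell classes, with 45.7 and 52.4 CPM in innate-type cells and 19.96 and 29.6 CPM in naive-type CD4 T cells, and after thinning it was found in 5.95% and 4.10% of innate-type cells. The difference between classes was not tested. Since these classes come from the same 2 libraries, they do not check the difference.

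**Figure D4:**
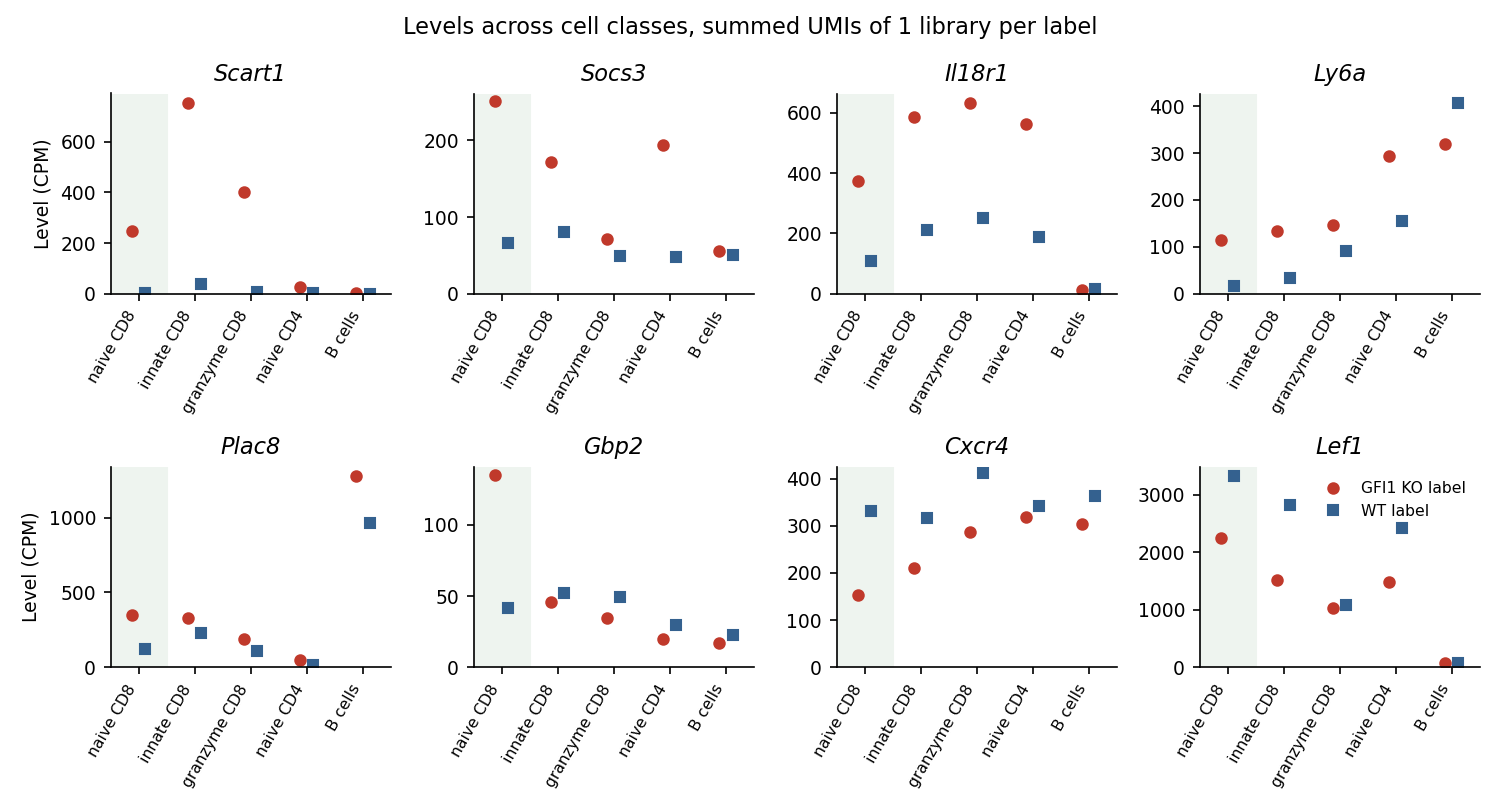
Levels (CPM, vertical axes starting at 0) of 8 genes in 5 cell classes, with red circles for the GFI1 KO label and blue squares for the WT label, each the summed UMIs of 1 library; naive-type CD8 T cells are shaded. Scart1, Socs3 and Il18r1 are higher for the GFI1 KO label in each of the T cell classes, and in the shaded class Gbp2 stands at 135 and 41.5 CPM and Cxcr4 at 153 and 331 CPM.

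Of the 14 genes of the T cell receptor and its signal chain, 0 were called in either direction and 7 had a ratio above 1, with Themis, which tunes receptor signals during selection, at 0.721 (0.656 to 0.792) and Lat, the membrane adaptor, at 1.43 (1.21 to 1.69). Among 8 lineage factors, 6 were compared, 5 had a ratio below 1 with a median log2 ratio of -0.31, and 1 was called lower. This was Gata3, with 7 and 114 UMIs, or 18.5 and 40.4 CPM. Its log2 ratio was 0.11 among members with none of the 12 genes of the rule's groups. Runx3, which holds CD8 identity, stood at 299 CPM (246 to 359) and 327 CPM (306 to 349), and Zbtb7b, which specifies CD4 identity, had 0 and 4 UMIs.

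Factors of the resting state were mixed in direction. Of 17 genes, 0 were called higher and 1, Myb, was called lower, with 19 and 323 UMIs and a ratio of 0.439 (0.261 to 0.696), though its log2 ratio was -0.37 among members with none of the 12 genes. The median log2 ratio was -0.04, the same as over all compared genes. Lef1, which the rule required, stood at 2252 CPM (2103 to 2408) and 3319 CPM (3252 to 3386), and Foxp1, which keeps T cells resting, at 2149 CPM (2004 to 2302) and 2939 CPM (2876 to 3003). The Lef1 level is a description of how members were chosen. Foxp1, which did not enter the rule, had a ratio of 0.731 (0.680 to 0.786). Btg1 and Btg2, which slow proliferation and promote the decay of mRNA, were higher with ratios of 1.40 (1.32 to 1.48) and 1.75 (1.55 to 1.97). Tcf7, the gene of TCF-1, stood at 465 and 563 CPM. Foxp1 stood at 1806 and 2827 CPM in innate-type cells and at 1736 and 2826 CPM in naive-type CD4 T cells.

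Of 16 genes of naive CD8 and young T cells, 13 were compared. Sox4, a factor of immature T cells, was the 1 called higher, with 24 and 83 UMIs and a ratio of 2.16 (1.31 to 3.43), but 8 of its 24 UMIs lay in 1 cell, and the ratio was 1.59 without the top cells. Dntt, Cd24a and Rag1, genes of thymocytes, were too rare to compare, with 4 and 16 UMIs of Dntt. Igfbp4 stood at 156 and 132 CPM and Ikzf2 at 230 and 244 CPM.

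Homing receptors gave 2 genes higher and 1 lower among 15 compared of 21, beside 1.36% and 3.73% of all compared genes. Ccr7, a receptor for entry into lymph nodes, stood at 835 CPM (746 to 933) and 916 CPM (881 to 952). S1pr1, the receptor for exit from them, stood at 687 and 711 CPM, so both differed by less than 2-fold. Cxcr4 was called lower, with 58 UMIs in 34.8% of members and 934 UMIs in 64.6%, a ratio of 0.463 (0.349 to 0.604), and its log2 ratio was -0.88 (-1.50 to -0.31) among members with none of the 12 genes, short of 2-fold. Cxcr5, the receptor of B cell follicles, had 16 and 36 UMIs (ratio 3.31, 1.72 to 6.13) and Ccr2, an inflammatory receptor, 11 and 20 UMIs (ratio 4.10, 1.77 to 8.98). The log2 ratio of Ccr2 was 0.71 (-2.59 to 3.11) with cells thinned before the rule and 0.96 (-1.10 to 2.63) among members with none of the 12 genes, so the call ended under both. That of Cxcr5 was 0.94 (-1.59 to 2.94) with cells thinned before the rule, which ended its call. In members thinned after the rule Ccr2 was found in 3.26% and 0.307%, at or below the 5.02% and 1.32% of B cells.

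Among 20 compared of 22 genes of survival and common gamma chain cytokine signals, Socs3 was the 1 called, and 13 had a ratio above 1. Il7r, the interleukin-7 receptor chain, had 857 and 5320 UMIs in 95.7% and 96.6% of members, or 2265 CPM (2116 to 2422) against 1886 CPM (1835 to 1937), and its ratio was 1.20 (1.12 to 1.29). Its protein, measured by the CD127 antibody tag, had medians of 14 and 13 UMIs per member. Il2rg stood at 415 and 295 CPM, Mcl1 at 552 and 421 CPM, and Bcl2 at 1620 and 1926 CPM. Receptor and survival genes were thus on either side of equality, each by less than 2-fold.

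The listed interferon response genes were mostly on the higher side without passing 2-fold. Of 21 compared genes 18 had a ratio above 1, the median log2 ratio was 0.47 against -0.04 over all compared genes, and 1, Gbp2, was called. The list did not count Iigp1 and Ly6a, which are interferon-induced too and were called higher. Both were named because their ratios were among the highest, so they are a description and add nothing to the result of the list. The genes of the list were then taken as a whole. Summed, they stood at 3642 CPM in KO members and 2692 CPM in WT members, against 2804 and 2758 CPM in innate-type cells and 2934 and 3131 CPM in naive-type CD4 T cells. Ifi27l2a stood at 772 and 514 CPM and Bst2 at 161 and 96.1 CPM. The 11 genes of MHC class I and its peptide loading each had a ratio above 1 (10 of 11 over all gene UMIs, where Tapbp passed below), with a median log2 ratio of 0.23 and 0 calls. Summed, they stood at 8812 and 7111 CPM in members and 8140 and 7179 CPM in innate-type cells. In naive-type CD4 T cells they stood at 8806 and 6959 CPM and in B cells at 5797 and 5087 CPM. The higher KO level was thus not particular to the members. Psmb8, an immunoproteasome subunit, stood at 473 and 292 CPM, and H2-D1, a class I heavy chain, at 2112 and 1501 CPM, with ratios of 1.62 (1.37 to 1.91) and 1.41 (1.30 to 1.52).

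Of 17 compared immediate-early and stress genes, which tissue dissociation can induce, 0 were called, 14 had a ratio above 1, and the median log2 ratio was 0.30. Their summed level was 10623 and 8115 CPM in members, 8563 and 7349 CPM in innate-type cells, 11615 and 9072 CPM in naive-type CD4 T cells and 8390 and 7012 CPM in B cells. Jun stood at 893 and 497 CPM and the chaperone Hspa8 at 2223 and 1476 CPM. Genes of tonic receptor signals and activation gave 1 higher, Ly6a, and 2 lower, Cd44 and Tnfrsf9, among 12 compared of 20. Over all compared genes 1.36% were called higher and 3.73% lower. Of the 12, 9 had a ratio below 1, and the median log2 ratio was -0.26, or -0.29 with Tnfrsf9 at its floor. The summed level of all 20 was 1115 and 1012 CPM, a ratio of 1.10 (0.993 to 1.22), and its most abundant gene was Cd69, a marker of early activation, at 317 and 211 CPM. Cd44 had 12 and 179 UMIs, and Tnfrsf9 0 and 37, at least 1.65-fold lower by the floor of 3 UMIs. The log2 ratio of Cd44 was 0.38 when cells were thinned before the rule. Nr4a1, a target of receptor signals, stood at 111 and 113 CPM, and Cd5, whose level follows the strength of self-recognition, at 66.1 and 80.8 CPM. Nr4a3, of the same family as Nr4a1, stood at 97.8 and 161 CPM.

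Among 16 compared of 27 memory and effector genes outside the rule, 2 were higher, Cd7 and Il18r1, and 1 was lower, Ccl5. The shares over all compared genes were 1.36% higher and 3.73% lower. Cd7 had 79 UMIs in 51.1% of members and 245 UMIs in 24.7%, a ratio of 2.40 (1.84 to 3.11), but its log2 ratio was 0.33 (-0.55 to 1.13) when cells were thinned before the rule. Ccl5, a chemokine of memory CD8 T cells, had 8 and 151 UMIs, with 40 of the 151 in 1 WT member, and its log2 ratio was 1.10 when cells were thinned before the rule. Eomes had 1 and 32 UMIs, Tbx21 0 and 7, and Ifng 0 and 1, so members of either library were low in these effector genes. Other listed genes were not low. The summed level of all 27 was 2247 and 1702 CPM, a ratio of 1.32 (1.23 to 1.42). Its most abundant gene was Klrd1, at 589 and 359 CPM. Id2 stood at 106 CPM (75.5 to 144) and 187 CPM (172 to 204). Of the 10 cell cycle genes, 5 were compared, each with a ratio below 1, and Top2a was called lower with 3 and 69 UMIs, of which 36 lay in 1 WT member, and its log2 ratio was 1.41 after the same thinning. Among corepressors that act with GFI1, Kdm1a stood at 122 and 115 CPM, Rcor1 at 145 and 139 CPM, Hdac1 at 92.5 and 102 CPM and Hdac2 at 37.0 and 53.2 CPM, and Hdac3 had 8 and 65 UMIs. Each of these had an interval of the ratio that held 1. Of 9 genes in that list 7 were compared, and Gfi1 itself was the 1 called higher. Rcor3, which was not in the list, was called lower with 0 and 37 UMIs, at least 1.65-fold by the floor of 3 UMIs. Of 15 genes named in work on GFI1 in lymphocytes 8 were compared, with Scart1 and Maf called higher and 0 lower. Over all compared genes 1.36% were called higher. The paper had already named Maf and Scart in lung γδ T cells of the same study, and the list was chosen with earlier results known. These calls are thus a description and no independent check.

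The lowest ratios were led by genes of other cell types. S100a9, S100a8 and Retnlg are neutrophil genes, and Cd74, H2-Aa, H2-Ab1 and H2-Eb1 are MHC class II genes. S100a9 had 4 UMIs in KO members and 767 in WT members, of which 399 lay in 1 cell and 92.4% in 5 cells. Cd74 had 12 and 880 UMIs, with 506 in 1 cell and 89.8% in 5 cells. Retnlg had 0 and 104 UMIs, at least 4.65-fold lower against a floor of 3 UMIs. These 7 genes thus rested on a few of the 652 WT members, and leaving out the 1 and 8 members with at least 5 UMIs summed over S100a8, S100a9 and the 4 class II genes, also chosen after seeing the data, changed the number of lower genes from 308 to 268. Without them the log2 ratio of S100a8 was 0.81, and with thinning before the rule those of Cd74, H2-Aa, H2-Ab1 and H2-Eb1 lay above 0, at 0.27, 0.94, 1.94 and 1.52. Scgb1a1, a secretory protein of airway club cells, was unlike them. It had 9 and 468 UMIs, found in 8.70% and 44.9% of members with at most 6 in a cell. After thinning it was found in 2.17% and 20.2% of members and in 4.68% and 23.5% of B cells. Of the 12 lowest ratios, 7 were called lower in innate-type cells and 8 in naive-type CD4 T cells, beside 3.49% and 3.16% of genes, and 2 were called lower in B cells, where 6.56% were and S100a8 was called higher.

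The marker lists of other cells were compared as a whole. The 7 B cell markers summed to 235 and 426 CPM, led by Ighm, with 81 and 698 UMIs. The 12 neutrophil and monocyte markers summed to 328 and 647 CPM, led by S100a9, with Ngp, Camp and Ltf at 0 in both. Their median log2 ratio over 6 compared genes was -2.47, or -2.16 with Retnlg at its floor. The 8 epithelial markers summed to 29.1 and 187 CPM, nearly all Scgb1a1, and the 8 alveolar macrophage markers to 256 and 397 CPM, led by Ctsd. Of the epithelial markers Sftpd had 0 UMIs in both libraries, and Fabp4, of the macrophage markers, had 0 and 2. The summed levels of these lists were lower in KO members, whereas Lyz2, a lysozyme gene of myeloid cells, stood at 188 and 102 CPM. NK cell markers (74.0 and 79.4 CPM, led by Tyrobp) and endothelial markers (463 and 495 CPM, led by Pecam1, which T cells also express) were close. The defining genes Ncr1, Klrb1c, Cdh5 and Cldn5 had 0 UMIs in KO members and at most 3 each in WT members. Fibroblast markers had 1 and 33 UMIs, red cell genes 1 and 7, and Foxp3 1 and 1. The part of free RNA or of joined cells in the lower genes was not tested.

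The abundant lower genes were found in many members. Pde3b, a phosphodiesterase, stood at 925 and 1893 CPM in 93.5% and 97.7% of members, and Txnip, an inhibitor of thioredoxin that is abundant in resting T cells, at 293 and 654 CPM. Ptk2b, the kinase Pyk2, stood at 151 and 433 CPM, Plcxd2 at 241 and 596 CPM and Rundc3b at 196 and 398 CPM. These were the 5 lower genes among those with at least 1000 UMIs, and none had more than 27 UMIs in 1 KO member. Pde3b was lower in naive-type CD4 T cells too, at 609 and 1344 CPM. In the lowest 12, 1700062C10Rik had 3 and 342 UMIs (1.09% and 12.9% of members), Trmt61b 2 and 131, Slc16a10 3 and 158, and Plin2 0 and 69.

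Antibody tags gave a second measure of the members' surface. The CD8a tag had a median of 521 UMIs on KO members and 390 on WT members, with at least 30 UMIs on 97.8% (92.4 to 99.7) and 99.1% (98.0 to 99.7) of members. Members had medians of 1449.5 and 1153.5 tag UMIs in total, and CD8a took 35.1% and 34.4% of them, so that its share was close while its count was higher on KO members. On B cells its median was 1 and 3 UMIs. The CD4 tag reached 30 UMIs on 3.26% (0.678 to 9.23) and 1.53% (0.738 to 2.80), so that nearly all members were CD8 T cells by protein as well. The CD45 tag had medians of 893.5 and 663.5 UMIs and took 60.4% and 56.7% of tag UMIs. KLRG1 and NK1.1, which mark effector and NK-type cells, had medians of 0 and 1 and of 0.5 and 2 UMIs, at the level of the RTK2758 isotype control, 0.5 and 2. The remaining tags were low, with higher medians on WT members for CD196, CD11c, CD335, FceRIa, CD117 and B220, and a higher median on KO members for CD11b, 3 against 1 UMIs. A tag named PE_Streptavidin2 reached 30 UMIs on 9.78% of KO members and 39.1% of WT members, and on 16.5% and 47.6% of B cells. The sources used here do not say what it marks.

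**Figure D5:**
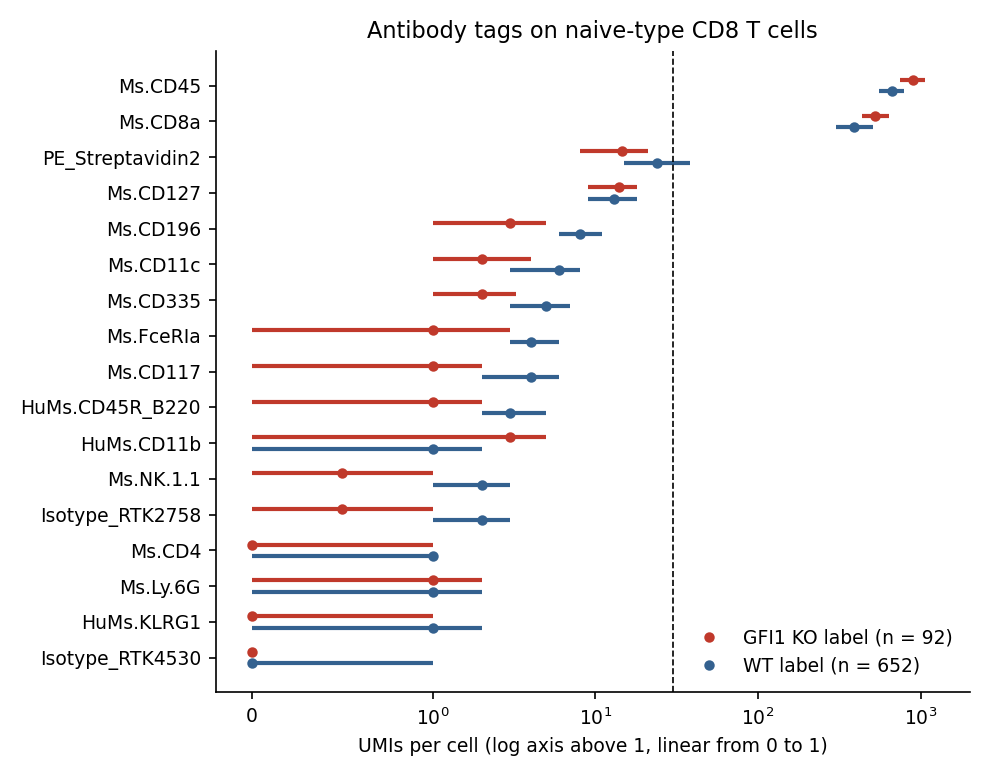
UMIs per member (horizontal axis, logarithmic above 1) of antibody tags on KO members (red, 92 cells) and WT members (blue, 652 cells); points are medians, lines run from the lower to the upper quartile and the dashed line marks 30 UMIs. CD45 and CD8a stand far above the other tags in both libraries, with CD8a medians of 521 and 390 UMIs.

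The members were set beside the other Cd8b1+ T cells of their own library. Several of the 10 genes picked as most different were higher in members in both libraries. Ccr9 was 18.3 times (8.79 to 42.6) and 4.33 times (3.34 to 5.69) as high, Gria3, a glutamate receptor gene, 33.8 times (14.5 to 96.2) and 3.50 times (2.79 to 4.45), and Slc6a19, an amino acid transporter gene, 5.10 times and 3.31 times. Ccl5 stood at 21.1 and 53.5 CPM in members and at 8535 and 6472 CPM in the other Cd8b1+ T cells. The chemokine receptor gene Cxcr3, the NK receptors Klrk1 and Klre1, Il18rap and the factors Zeb2 and Runx2 were lower in members in both libraries as well, each with an interval of the ratio below 1. The classes were built from the same cells and depend on related genes, so these values describe the split and do not test it. Gria3 and Ccr9 separated the classes more in the KO library, where the other Cd8b1+ T cells had 4.15 and 6.22 CPM against 38.9 and 29.2 CPM in the WT library. The other Cd8b1+ T cells differed in make-up between the libraries. Those with Lef1, just 2 innate-type genes and at most 1 granzyme-type gene, next to the limit of the rule, were 31 KO and 176 WT cells. The part of this make-up in the contrast was not tested.

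Against naive-type CD4 T cells, chosen by the same rule with Cd4 in place of Cd8b1 and with no UMI of Cd8a, Cd8b1 or Foxp3 (54 and 414 cells), the 10 genes picked as most higher in members were Bend4, Slc6a19, Itgae, Klrd1, Fam241a, Plac8, Ccr9, Ncf1, Rcn3 and Dnaaf11. Bend4 stood at 225 and 278 CPM in members and at 9.98 and 10.05 CPM in CD4 T cells, and Itgae, the αE integrin gene, at 71.4 and 106 CPM against 4.99 and 8.93 CPM. Klrd1, the CD94 chain of NKG2 receptors, was 9.09 times (5.21 to 17.3) and 9.90 times (7.70 to 12.9) as high. Members were lower in Cd40lg, the helper T cell ligand, at 5.29 and 3.19 CPM against 220 and 122 CPM. Tnfrsf4 and S100a4 were lower too, S100a4 at 26.4 and 26.6 CPM against 664 and 239 CPM. The 8 CD8 or CD4 lineage factors summed to 1623 and 1812 CPM in members and to 3213 and 3095 CPM in naive-type CD4 T cells, with Tox the most abundant in members. The 10 genes and those named as lower were picked for differing in both libraries, so their shared direction is a description.

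Spread among members was measured as the ratio of variance to mean after thinning to 2000 UMIs. Its median over genes was 1.18 in KO members and 1.07 in WT members, close to the value of 1 that counting alone gives, but over different genes (751 and 5165 with enough UMIs), so the libraries are not compared on it. Among KO members the most uneven genes were Trbc1 (5.48), of which an αβ T cell uses either this gene or Trbc2, Auts2 (5.42) and Malat1 (4.94). Among WT members they were S100a9 (76.5), S100a8 (36.6) and Cd74 (30.8), followed by H2-Eb1, Cst3, H2-Aa and Ccl5. Unevenness among WT members was thus led by the genes that lay in a few members.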

How the data were processed

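Live lung cells were profiled with 10x Genomics 3′ chemistry and antibody tags. The authors deposited raw UMI counts per gene or tag and called cell, without normalization. The submitters' processing notes name Cell Ranger 9.0.1 and GRCm39, and removal of doublets or free RNA is not given in the sources used here. The paper's methods state more than 1 sample per genotype, and 1 per genotype was analysed here. The files hold 33696 genes and 18 antibody tags. Gene names are those of the files, and no coordinates were used.

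The cell filters follow the paper's methods, and doublets were kept. UMIs of the members were summed per library. Levels are per 1000000 UMIs without ribosomal, mitochondrial and Gm- genes, with exact Poisson intervals. Ratios have exact conditional binomial intervals, shares have Clopper-Pearson intervals, and differences of shares combine both bounds by the square-and-add method. The limit of a count of 0 is 3 UMIs over the class. A list's median log2 ratio was taken with 0.5 UMIs added. Cells were also drawn down to 2000 UMIs each (1 draw, seed 1) where depth bears on a share. For the naive-type share of Cd8b1+ T cells, 20 draws gave the range of the difference. The count test usual for replicated counts could not be run with 1 library per label.

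The members and the 25 gene lists were chosen with earlier results of these data known. Named genes were those of the lists, 3 of them matched under the symbols of the files and 2 not in the files, the 12 highest and 12 lowest ratios by the interval bound nearer to 1, the 10 genes with the most UMIs, the 10 most different from each compared class and the 10 most uneven. The text prints a choice of them, and the other called genes with at least 1000 UMIs and the genes of members with and without Scart1 were chosen after their values were seen. The tag minimum of 30 UMIs was taken from earlier work on these data. Python 3.11.15, numpy 2.4.6, scipy 1.17.1, pandas 2.3.3 and scanpy 1.11.5 (Scrublet) were used. The scripts for ratios, thinning and the rule were tested on simulated data. Some genes and 1 tag are not reported here.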

Additional observations from a re-analysis of the deposited data

Results flagged for a closer look

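In naive-type CD8 T cells, 9 of the 7170 genes with at least 30 UMIs both here and in naive-type CD4 T cells had counted ratios of GFI1 KO to WT of at least 2 in one class and at most 0.5 in the other, each with a counting interval that left out 1. Over all compared genes, 1.36% were called higher and 3.73% lower in members, and 2.87% and 3.16% in naive-type CD4 T cells. Whether 9 is more than unrelated calls in the classes would give was not tested. The genes below are therefore a description. The difference between the classes was not tested, since each class of each label is 1 library, and the CD4 class holds 54 KO cells.

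Nr6a1 and Spsb1 were higher in KO members and lower in CD4 T cells. Nr6a1, an orphan nuclear receptor gene, stood at 71.4 and 35.4 CPM in members (ratio 2.01) and at 15.0 and 60.8 CPM in CD4 T cells (0.246). Spsb1 stood at 31.7 and 14.5 CPM (2.18) and at 4.99 and 34.0 CPM (0.147).

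Under the main rule with all UMIs, the other 7 were lower in KO members and higher in CD4 T cells. Gata3 stood at 18.5 and 40.4 CPM in members (0.458) and at 215 and 95.4 CPM in CD4 T cells (2.25, 1.57 to 3.16). Among members with no granzyme-type or innate-type gene detected, the log2 ratio of Gata3 was 0.11 (-1.43 to 1.36), an interval on both sides of equality. The opposite direction of Gata3 thus did not hold under that choice of members. Ccl5 stood at 21.1 and 53.5 CPM (0.395) and at 344 and 42.4 CPM (8.12). With cells thinned before the rule, the log2 ratio of Ccl5 in members was 1.10 (0.66 to 1.53), on the same side as in CD4 T cells. Tnfrsf9, the activation receptor 4-1BB, had 0 and 37 UMIs in members, at least 1.65-fold lower by a floor of 3 UMIs and so not shown to be past 2-fold, and stood at 84.8 and 13.4 CPM in CD4 T cells (6.33). Nt5e, the ectoenzyme CD73, had ratios of 0.433 and 2.47, Sh3rf1 of 0.454 and 2.47, Rfwd3 of 0.486 and 2.11, and Dhrs7 of 0.410 and 2.44.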

How the results depend on the processing

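No paired analysis was possible because each label has 1 library. Of 8 other ways to choose the cells, the difference in the share of Cd8b1+ T cells moved beyond its interval of -40.6 to -29.5 points under 1, requiring that none of the 12 granzyme-type and innate-type genes was detected (-13.0 points, 11.5% against 24.6%). The difference in the share of all cells, -2.49 points, was -0.964 under that rule, -1.51 after thinning before the rule and -1.98 with at least 2 UMIs each of Lef1 and Cd8b1. The 112 higher genes became 35 with at least 100 UMIs required, 291 at 1.5-fold, 24 at 3-fold and 65 without the top cell of each gene (64 of them among the 112). The 308 lower genes became 199 with none of the 12 genes, 145 after thinning, 190 with at least 100 UMIs, 581 at 1.5-fold, 148 at 3-fold and 586 without the top cells. After thinning, which also left fewer cells and 4418 genes to compare, 15 of 92 higher and 22 of 145 lower genes were among those called with all UMIs.

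Over 62 named genes, 597 of 669 log2 ratios under other settings lay within the original interval, 62 moved and 10 reversed. After thinning, Ccl5 (1.10), Cd44 (0.38), Cd74 (0.27), H2-Aa (0.94), H2-Ab1 (1.94), H2-Eb1 (1.52) and Top2a (1.41) reversed. Gata3 did with none of the 12 genes (0.11), and S100a8 without Scrublet doublets (0.68) and without the members rich in myeloid or class II UMIs (0.81). The cause was not tested. With 92 KO members, 3 UMIs over the class equal 7.93 CPM, so ratios of genes near that level in KO members rest on few UMIs. Of the genes called lower, 118 had at most 3 UMIs in KO members. Genotype cannot be told apart from mouse or library.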
